A study of Mus musculus with 18 samples.

Results

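The mitochondrial protein import machinery was followed in mouse ovarian cancer cells across a knockdown of the complex I gene Ndufa5 and a change of conditioned medium. Its members were chosen by name, as the rows of the deposited expression table for the numbered Timm and Tomm genes and for Pam16, Samm50, Pmpca, Pmpcb, Grpel1 and Grpel2. This gave 32 of 54532 rows, among them 1 antisense RNA, Tomm6os. The rule names genes and uses no measured value, but the group was proposed with earlier results of these data known.

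KPCA.B, a mouse cell line labelled as high grade serous ovarian cancer, carried a hairpin RNA in each of the 6 groups of 3 libraries. The hairpins were shNdufa5_1 and shNdufa5_2, which are labelled as Ndufa5 knockdowns, and shControl, labelled Ndufa5 wild type. Each was grown in medium conditioned by cells made senescent with cisplatin (SCM) and in medium conditioned by proliferating cells that had received the DMF vehicle (PCM), in both cases mixed with fresh medium. The design asked how factors released by senescent cells act on the transcription of neighbouring cells when Ndufa5 is present or lowered, and polyadenylated RNA was sequenced. The labels name a single cell line and no clones, and do not say whether the 3 libraries of each group stem from cultures grown apart. The tests then measure only the spread between these libraries, which may be technical.

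Nearly all mitochondrial proteins are made in the cytosol and cross the outer membrane through the TOM complex, a channel with receptors for targeting signals. From there the TIM23 complex and its ATP-driven motor carry proteins with a presequence into the matrix, where a peptidase cuts the presequence off. Small chaperones of the intermembrane space pass carrier proteins to the TIM22 complex and barrel-shaped proteins to the SAM complex of the outer membrane, and the subunits of complex I that nuclear genes encode, Ndufa5 among them, enter the mitochondrion by these routes.

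Promoters are shown for 4 members whose RNA differed between the media in the control cells and whose start region holds a motif of factors known for nuclear genes of mitochondrial proteins. Timm50 and Tomm70a are shown because they had the largest increase and the largest decrease, and Timm8b and Tomm20 because they were among the most highly expressed members. Each sequence runs 5′ to 3′ on the strand of the gene, from 250 bases before its RefSeq start to 30 bases after it, in the build GRCm38.p6, and capitals mark matches to the NRF1, ETS or YY1 motif.
Timm50, chr7:28312017-28312296, minus strand: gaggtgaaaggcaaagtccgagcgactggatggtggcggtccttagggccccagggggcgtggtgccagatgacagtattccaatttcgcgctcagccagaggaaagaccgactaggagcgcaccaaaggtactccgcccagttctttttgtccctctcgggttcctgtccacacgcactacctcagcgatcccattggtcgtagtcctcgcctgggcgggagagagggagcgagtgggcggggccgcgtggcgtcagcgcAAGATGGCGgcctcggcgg
Timm8b, chr9:50603651-50603930, plus strand: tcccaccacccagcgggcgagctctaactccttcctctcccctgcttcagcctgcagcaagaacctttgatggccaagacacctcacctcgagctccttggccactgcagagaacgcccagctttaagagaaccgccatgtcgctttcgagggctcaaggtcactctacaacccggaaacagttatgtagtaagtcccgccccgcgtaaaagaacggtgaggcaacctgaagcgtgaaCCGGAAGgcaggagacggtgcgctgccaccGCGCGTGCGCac
Tomm20, chr8:126945892-126946171, minus strand: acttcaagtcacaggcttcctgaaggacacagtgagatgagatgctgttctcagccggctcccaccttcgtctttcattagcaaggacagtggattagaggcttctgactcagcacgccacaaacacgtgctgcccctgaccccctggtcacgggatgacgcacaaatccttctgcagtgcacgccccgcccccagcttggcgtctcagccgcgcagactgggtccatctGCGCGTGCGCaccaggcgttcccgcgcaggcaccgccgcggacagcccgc
Tomm70a, chr16:57121464-57121743, plus strand: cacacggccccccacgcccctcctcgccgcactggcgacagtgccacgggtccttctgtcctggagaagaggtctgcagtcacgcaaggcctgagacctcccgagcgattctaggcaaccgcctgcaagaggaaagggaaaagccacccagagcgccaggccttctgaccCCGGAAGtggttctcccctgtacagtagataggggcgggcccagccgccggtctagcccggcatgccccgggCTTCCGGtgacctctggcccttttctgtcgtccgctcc

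Positions are counted from the RefSeq start and give the first base of a match. Timm50 carried the YY1 motif AAGATGGCG at position 12. Timm8b carried the ETS motif CCGGAAG at position -12 and the NRF1 motif, a palindrome-like GC-rich site, at position 19. In Tomm20 the NRF1 motif began at position -20, and in Tomm70a ETS motifs began at positions -80 and -8, the second on the other strand. Both strands were searched in the 280-base windows of the 23 tested members that RefSeq listed. A member was counted when any of its windows matched. The share over all promoters instead counts each window, of genes tested here or not, so the units differ. The ETS motif stood in 10 of 23, against 8.45% of all 32851 RefSeq promoters. The NRF1 motif stood in 3 of 23, against 4.41% of all promoters, and the YY1 motif in 1 of 23, against 1.05%. The GC box GGGCGG, which can overlap the others, stood in 13 of 23, against 34.7% of all promoters, the CCAAT box in 7 of 23, against 36.1%, and the ATF4 motif TGATGNAAT in 0 of 23, against 0.919%. Of the 11 listed members that rose with SCM in shControl cells, 5 held the ETS motif and 2 the NRF1 motif, and of the 5 that fell, 2 held the ETS motif and 0 the NRF1 motif. A match of letters is a description and does not show that a factor binds.

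The hairpin labels were first set against the RNA of Ndufa5, an accessory subunit of complex I. In SCM, Ndufa5 measured 6.46, 6.78 and 6.23 FPKM with shNdufa5_1, 14.6, 16.1 and 20.2 FPKM in the libraries labelled shNdufa5_2, and 22.3, 26.2 and 20.9 FPKM with shControl. In PCM, Ndufa5 measured 6.23, 6.39 and 6.85 FPKM with shNdufa5_1, 18.7, 17.2 and 16.8 FPKM in the libraries labelled shNdufa5_2, and 15.2, 19.02 and 22.1 FPKM with shControl. The shNdufa5_1 libraries lay far below shControl in both media, whereas the libraries labelled shNdufa5_2 lay below shControl in SCM and inside its range in PCM. With shNdufa5_1 Ndufa5 stood at 28.0% of shControl in SCM (log2 difference -1.68 ± 0.12 (adjusted p = 9.80e-09)) and at 34.6% in PCM (-1.39 ± 0.12 (adjusted p = 1.47e-07)). In the libraries labelled shNdufa5_2 it stood at 73.4% of shControl in SCM (-0.43 ± 0.12 (adjusted p = 0.0125)) and at 93.4% in PCM, a difference of -0.079 (95% interval -0.34 to 0.18, adjusted p = 0.647). In SCM this smaller difference was lost without shControl SCM replicate 2 (-0.34, adjusted p = 0.0656) or shNdufa5_2 SCM replicate 1 (-0.33, adjusted p = 0.0634). By an exact permutation test, two-sided, p was 0.1 for both shNdufa5_1 comparisons and for the shNdufa5_2 comparison in SCM, the smallest value that 3 against 3 libraries allow, and p = 0.6 for shNdufa5_2 in PCM. The hairpin labels are therefore given as labels for shNdufa5_2 throughout.

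Values are FPKM, fragments per kilobase of transcript and per M (mega) of a denominator particular to each library, which was 0.867 to 1.05 times the fragments recovered for it. Differences are those of log2(FPKM + 1) with their standard error, tested with limma over 11084 genes and called at a Benjamini-Hochberg adjusted p under 0.05. The libraries held 13.8 to 38.7 M recovered fragments, and the 2 deepest were replicate 2 of shControl in each medium. The FPKM values of a library summed to 437859 to 484520 in shControl SCM libraries and to 290242 to 389116 in the other 15. A single row, Gm23935, held 71195 to 105410 FPKM in shControl SCM libraries and 14889 to 26578 FPKM in shControl PCM libraries, and 5.13 to 27.07% of the total over all 18. Without it the sums were 366664 to 379110 in shControl SCM libraries and 267110 to 332096 in the other 15. Of 12 listed markers of ovarian carcinoma epithelium, 7 had a mean of at least 1 FPKM, and Wt1 and Muc16 were at 0 in every library. Epcam, Cdh1 and Cldn4 averaged 0.14, 0.58 and 0.23 FPKM. The summed epithelial list measured 2053 to 2121 FPKM with shNdufa5_1, 1273 to 1344 FPKM in the libraries labelled shNdufa5_2 and 1713 to 1827 FPKM with shControl in SCM, and in PCM 1727 to 1776 FPKM with shNdufa5_1, 1281 to 1303 FPKM in the libraries labelled shNdufa5_2 and 1147 to 1222 FPKM with shControl. Keratins Krt18, Krt7, Krt19 and Krt8 made up most of this sum, with means of 665, 299, 292 and 165 FPKM. With shNdufa5_1 against shControl, 3 of the 7 rose and 3 fell in SCM, and 4 rose and 2 fell in PCM. Pax8 (-0.75 in SCM, -0.33 in PCM) and Cldn3 (-0.66 in each) were among those that fell. In the libraries labelled shNdufa5_2 all 7 fell in SCM, and in PCM 2 rose and 1 fell. Summed lists of fibroblast, immune and endothelial markers stayed at or below 7.97, 11.3 and 0.175 FPKM, with Thy1, Cd3e, Itgam and Cldn5 at 0 in every library. Cd14 made up most of the immune list, at 5.34 to 11.2 FPKM, and was higher with shNdufa5_1 than with shControl by 0.63 (adjusted p = 6.62e-05) in SCM and by 0.48 (adjusted p = 0.00104) in PCM. Of 4 mesothelial markers only Msln exceeded a mean of 1 FPKM, at 40.7 to 71.9 FPKM. Msln rose with SCM in shControl by 0.55 (adjusted p = 4.60e-08) and in PCM was higher with shNdufa5_1 than with shControl by 0.69 (adjusted p = 5.79e-09), and its response differed from that of shControl by -0.64 (adjusted p = 2.92e-06) with shNdufa5_1 and -0.55 (adjusted p = 6.34e-06) in the libraries labelled shNdufa5_2. The part of these differences in the results was not tested, and fewer cells of a kind and less RNA per cell cannot be told apart in such bulk samples.

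Of the 32 members, 27 reached the mean of 1 FPKM that the tests required, and 5 did not. Timm10b, a subunit attached to the TIM22 complex, averaged 0.960 FPKM and ranged from 0.609 to 1.32 FPKM. Tomm20l and Timm8a2, paralogues of Tomm20 and Timm8a1, rested on 6 fragments and 1 fragment over all 18 libraries. Tomm6, a small subunit of the TOM complex, averaged 0.0929 FPKM, and its antisense partner Tomm6os averaged 0.131 FPKM. Because 84.2% of the exon bases of Tomm6 and 51.3% of those of Tomm6os lie in other genes, and whether fragments were counted by strand is not given in the sources used here, both values are uncertain. The same holds for Tomm40l, whose exons share 64.3% of their bases with Nr1i3 on the other strand, a gene that averaged 0.00661 FPKM here.

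Among the tested members, per length, the intermembrane space chaperones Timm13 and Timm8b had the highest levels, with means over the 18 libraries of 64.2 and 61.5 FPKM. The receptors Tomm20 and Tomm22 followed with 53.9 and 45.4 FPKM. The lowest were Timm9 with 4.63 FPKM and the channel paralogue Tomm40l with 2.94 FPKM. Each member overlapped its neighbour in the order of levels in its range over the 18 libraries. Summed over the 32 members, the level was 627 ± 10.9 FPKM with shNdufa5_1, 661 ± 6.31 FPKM in the libraries labelled shNdufa5_2 and 806 ± 25.2 FPKM with shControl in SCM (SD, n = 3). In PCM the sum was 626 ± 5.24 FPKM with shNdufa5_1, 710 ± 8.84 FPKM in the libraries labelled shNdufa5_2 and 682 ± 14.4 FPKM with shControl. On the deposited scale the shControl SCM libraries were the highest of all groups, and no library of another group reached their lowest sum of 786 FPKM. Those libraries also had the largest FPKM totals over all genes, 437859 to 484520, against 290242 to 389116 in the other groups. The order of the sums is therefore given for the deposited scale only.

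The first question of the design is what SCM did in cells with the control hairpin. There Timm50, the receptor of the TIM23 complex, averaged 58.5 ± 3.88 FPKM in SCM and 33.5 ± 0.928 FPKM in PCM, and the chaperone Timm13 averaged 93.7 ± 2.63 FPKM in SCM and 62.2 ± 4.19 FPKM in PCM (SD, n = 3 each). Tomm70a, the receptor for carrier proteins, went the other way, with 12.4 ± 0.939 FPKM in SCM and 18.6 ± 0.696 FPKM in PCM. With a trend on exon length and GC content removed, the Timm13 difference was 0.084 in log2 units and not called. Those of Timm50 and Tomm70a stayed called, at 0.44 and -0.20. Of the 27 tested members, 14 rose, 6 fell and 7 did not pass the test, a share to be read against the 61.9% of all tested genes that were called, 31.7% higher and 30.2% lower. The median difference of the members was 0.17, against 0.0034 over all tested genes. By role among the tested members, 5 of 7 TOM genes rose and 1 fell, and 2 of 5 TIM23 genes rose and 1 fell. Both tested TIM22 genes, Timm22 and Timm29, fell, and 2 of 5 small Tim chaperones rose and 1 fell.

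That direction depended on the scale of the values. In the deposited values the median gene was near level between groups, and how they were scaled is not given in the sources used here. Scaling by each library's FPKM total instead moved the median gene by -0.50 in this comparison and gave 1 member higher and 21 lower, and by the total without Gm23935 moved it by -0.36 and gave 1 higher and 16 lower. Scaling by recovered fragments moved it by -0.20 and gave 5 higher and 10 lower, quantile normalization gave 7 higher and 8 lower, and removing the trend on exon length and GC content gave 10 higher and 7 lower. Changes below are therefore changes relative to the median gene. Across the 27 members the difference had a Spearman correlation of -0.22 with exon length and 0.30 with GC content, and across 11074 genes of -0.32 and 0.53. These genes share the same libraries, and the part of base composition in the results was not tested.

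With shNdufa5_1, 4 members rose with SCM, 2 fell and 21 did not pass the test, against 42.3% of all tested genes called, 22.5% higher and 19.8% lower. The members' median was -0.028, against 0.016 over all genes. Under the label shNdufa5_2, 1 member rose, 7 fell and 19 did not pass, against 22.8% of all genes called, 11.7% higher and 11.1% lower, with a median of -0.11 against -0.0046. For shNdufa5_1, scaling by FPKM totals gave 1 higher and 2 lower, by recovered fragments 4 and 8, and quantile normalization 4 and 6. For shNdufa5_2 the same scalings gave 1 higher and 1 lower, 0 and 13, and 1 and 7. Tomm7 was the single member that rose, and Tomm70a the single member that fell, with SCM under all 3 hairpins.

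**Figure D1:**
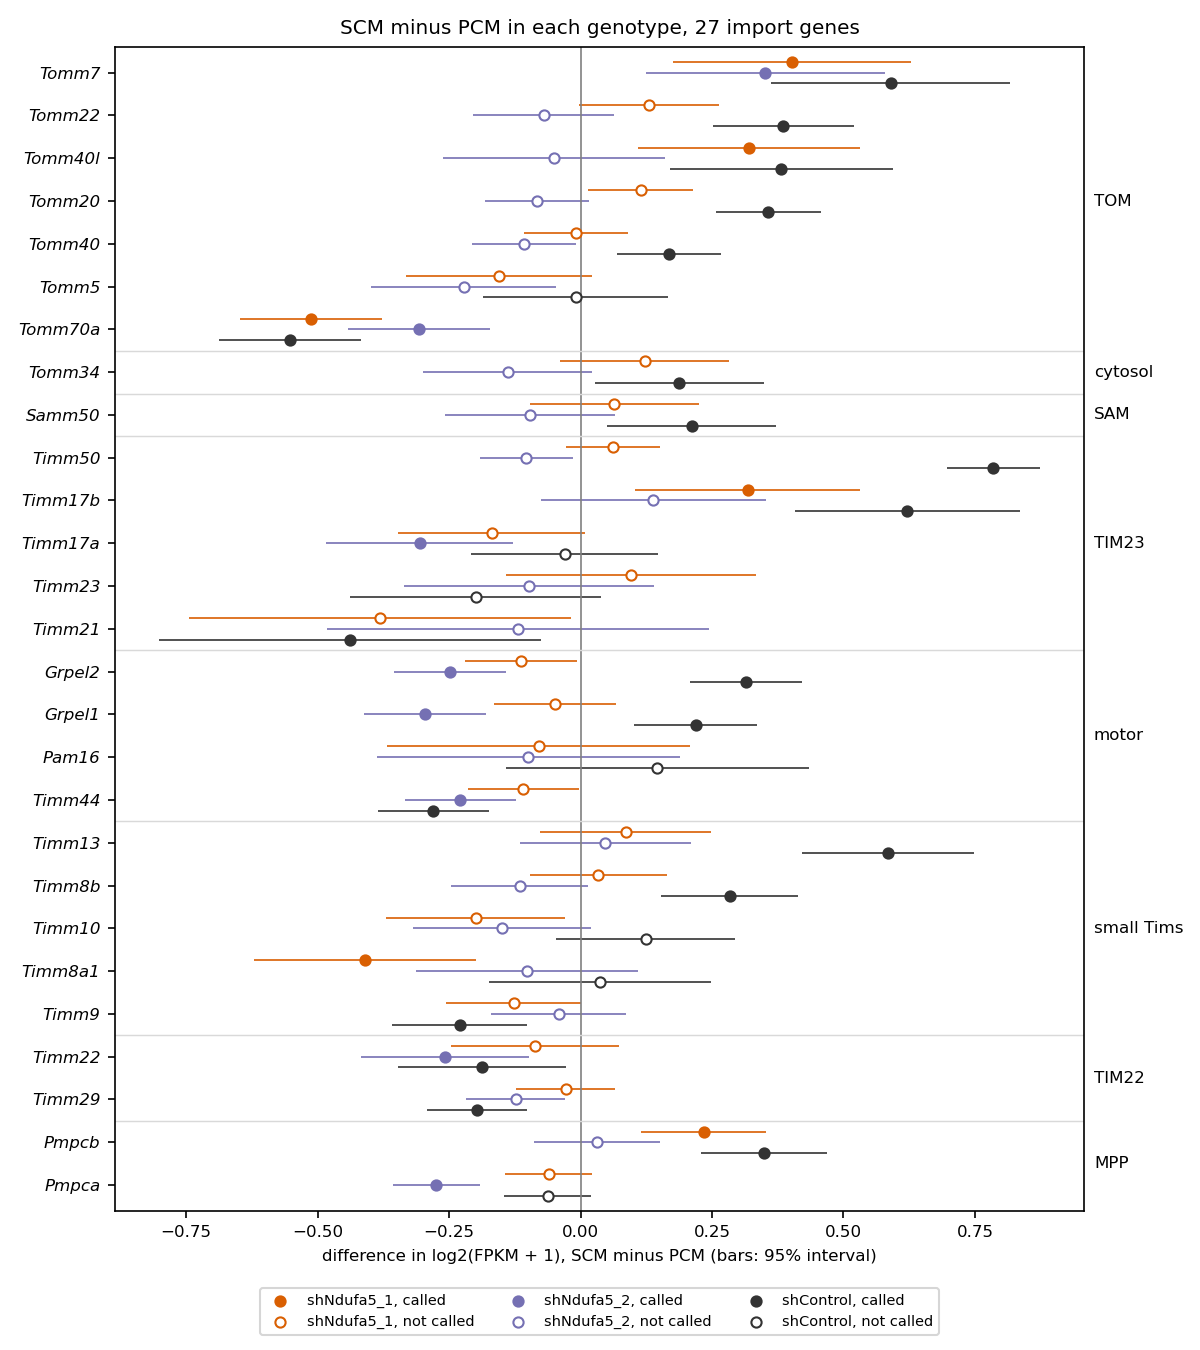
Difference of log2(FPKM + 1) between SCM and PCM for the 27 tested members, grouped by role, with 1 colour per hairpin. Points are limma's differences with 95% intervals, filled where the adjusted p was under 0.05 and open where it was not; with shControl Timm50 lies farthest right at 0.79 and Tomm70a farthest left at -0.55.

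Both hairpins were then set against shControl within SCM, in comparisons that share the shControl libraries. With shNdufa5_1, 16 of 27 members fell, 4 rose and 7 did not pass the test, against 59.8% of all tested genes called, 31.1% lower and 28.7% higher. The members' median was -0.37, against -0.0043 over all genes. By role, 4 of 7 TOM genes, 3 of 4 motor genes, 3 of 5 small Tim chaperones and both tested TIM22 genes fell. Of 5 TIM23 genes 2 rose and 2 fell, and the motor gene Timm44 and the cytosolic Tomm34 also rose. For the libraries labelled shNdufa5_2, 13 members fell, 0 rose and 14 did not pass, against 33.9% of all genes called, 20% lower and 13.9% higher, with a median of -0.21 against -0.014. There, 5 of 7 TOM genes, 3 of 5 small Tim chaperones and both peptidase subunits fell. Scaling by FPKM totals moved the median gene by 0.35 and 0.23 and gave 11 members higher and 4 lower for shNdufa5_1 and 2 higher and 1 lower for shNdufa5_2. By recovered fragments the splits were 8 higher and 12 lower for shNdufa5_1 and 0 higher and 8 lower for shNdufa5_2. With the length and GC trend removed, shNdufa5_1 had 3 higher and 12 lower, with a members' median of -0.19. For shNdufa5_2 this gave 0 and 11, with a median of -0.15. Quantile normalization gave 4 and 14 (median -0.16) for shNdufa5_1 and 0 and 8 (median -0.13) for shNdufa5_2.

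**Figure D2:**
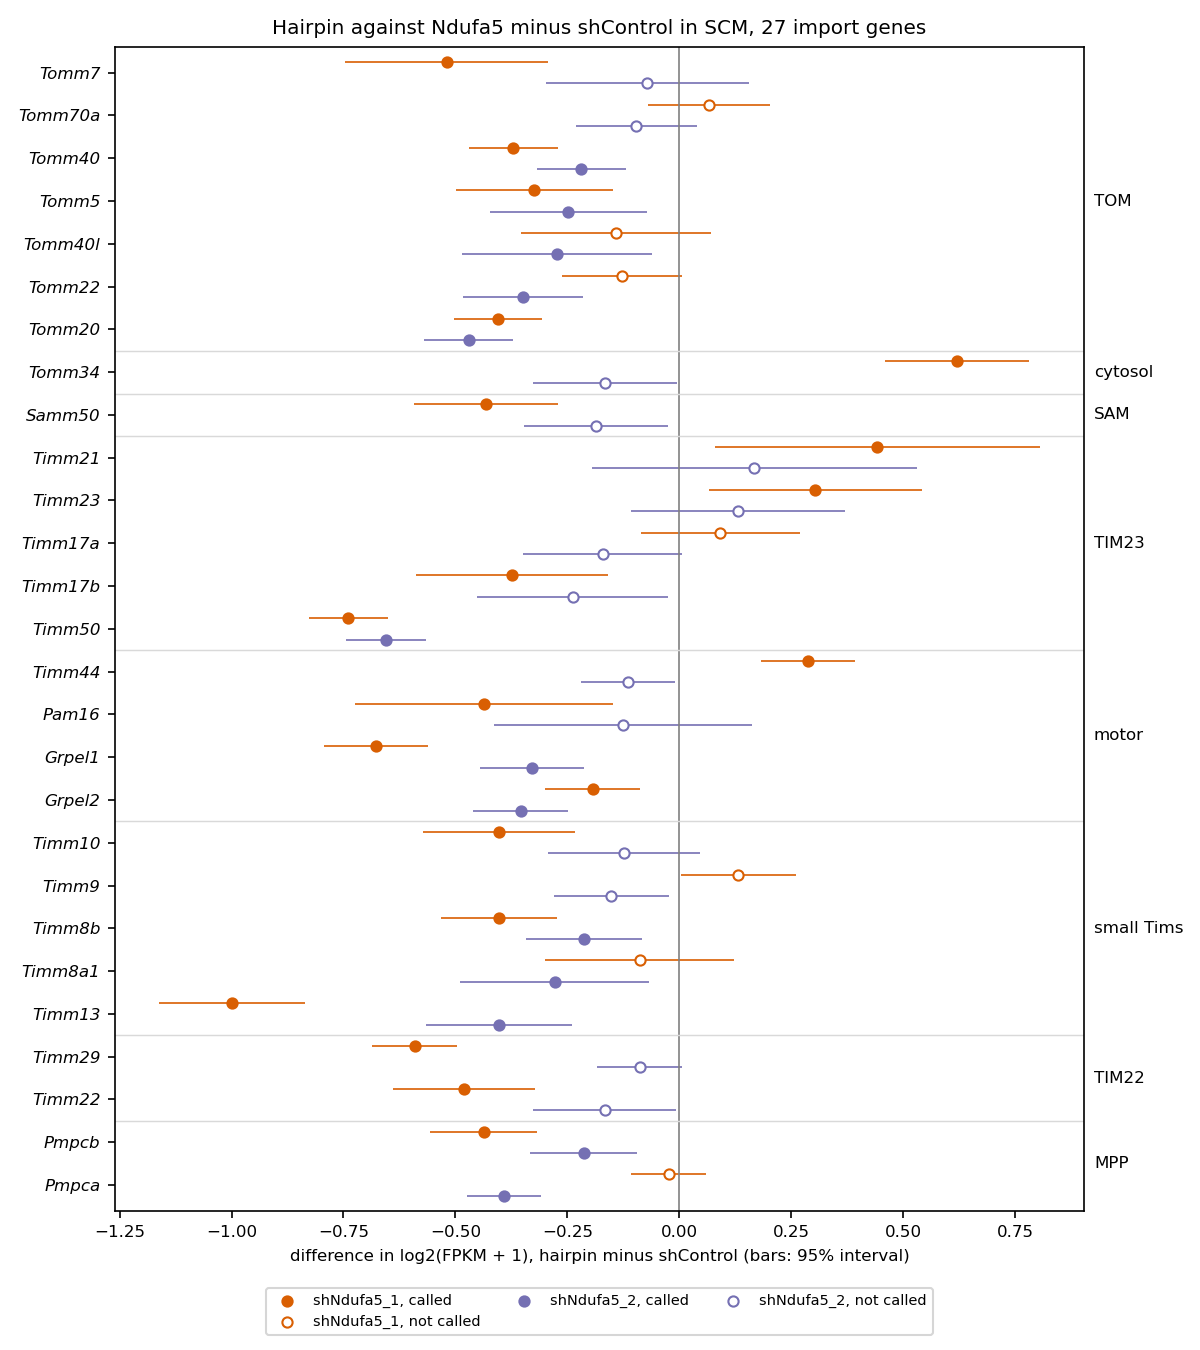
Difference of log2(FPKM + 1) from shControl within SCM for the 27 tested members, grouped by role, with 1 colour per hairpin. Points are limma's differences with 95% intervals, filled where called. The points of Timm50 and Timm13 lie left of 0 for both hairpins. They lie at -0.74 and -0.999 with shNdufa5_1, and at -0.65 and -0.40 in the libraries labelled shNdufa5_2.

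Within PCM, with shNdufa5_1, 10 of 27 members fell, 4 rose and 13 did not pass the test, against 52.7% of all tested genes called, 27.1% lower and 25.6% higher, and the members' median was -0.080, against -0.0058 over all genes. In the libraries labelled shNdufa5_2, 5 fell, 4 rose and 18 did not pass, against 35.6% of all genes called, 16.3% lower and 19.3% higher, with a median of 0.10 against 0.010. Scaling by FPKM totals moved the median gene by -0.12 and -0.30 and gave 1 higher and 11 lower for shNdufa5_1 and 0 and 13 for shNdufa5_2. Recovered fragments gave 1 higher and 6 lower for shNdufa5_2, and quantile normalization gave 6 and 8 for shNdufa5_1 and 2 and 6 for shNdufa5_2. The 10 members that fell with shNdufa5_1 in PCM also fell with it in SCM, where they made up 62.5% of the 16 that fell. Over all tested genes, 71.6% of the 3000 that fell in PCM also fell in SCM, which was 62.3% of the 3450 that fell there. These comparisons share no library, and the 10 were Grpel1, Pmpcb, Samm50, Timm13, Timm22, Timm29, Timm8b, Tomm20, Tomm40 and Tomm7, of which Timm8b and Tomm7 lost the PCM call when single libraries were left out. The rises were shared less: of the 4 members that rose with shNdufa5_1 in PCM, only 1, Tomm34, also rose with it in SCM. Grpel2 rose in PCM and fell in SCM. Over all tested genes, 70.8% of the 2839 that rose in PCM also rose in SCM.

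**Figure D3:**
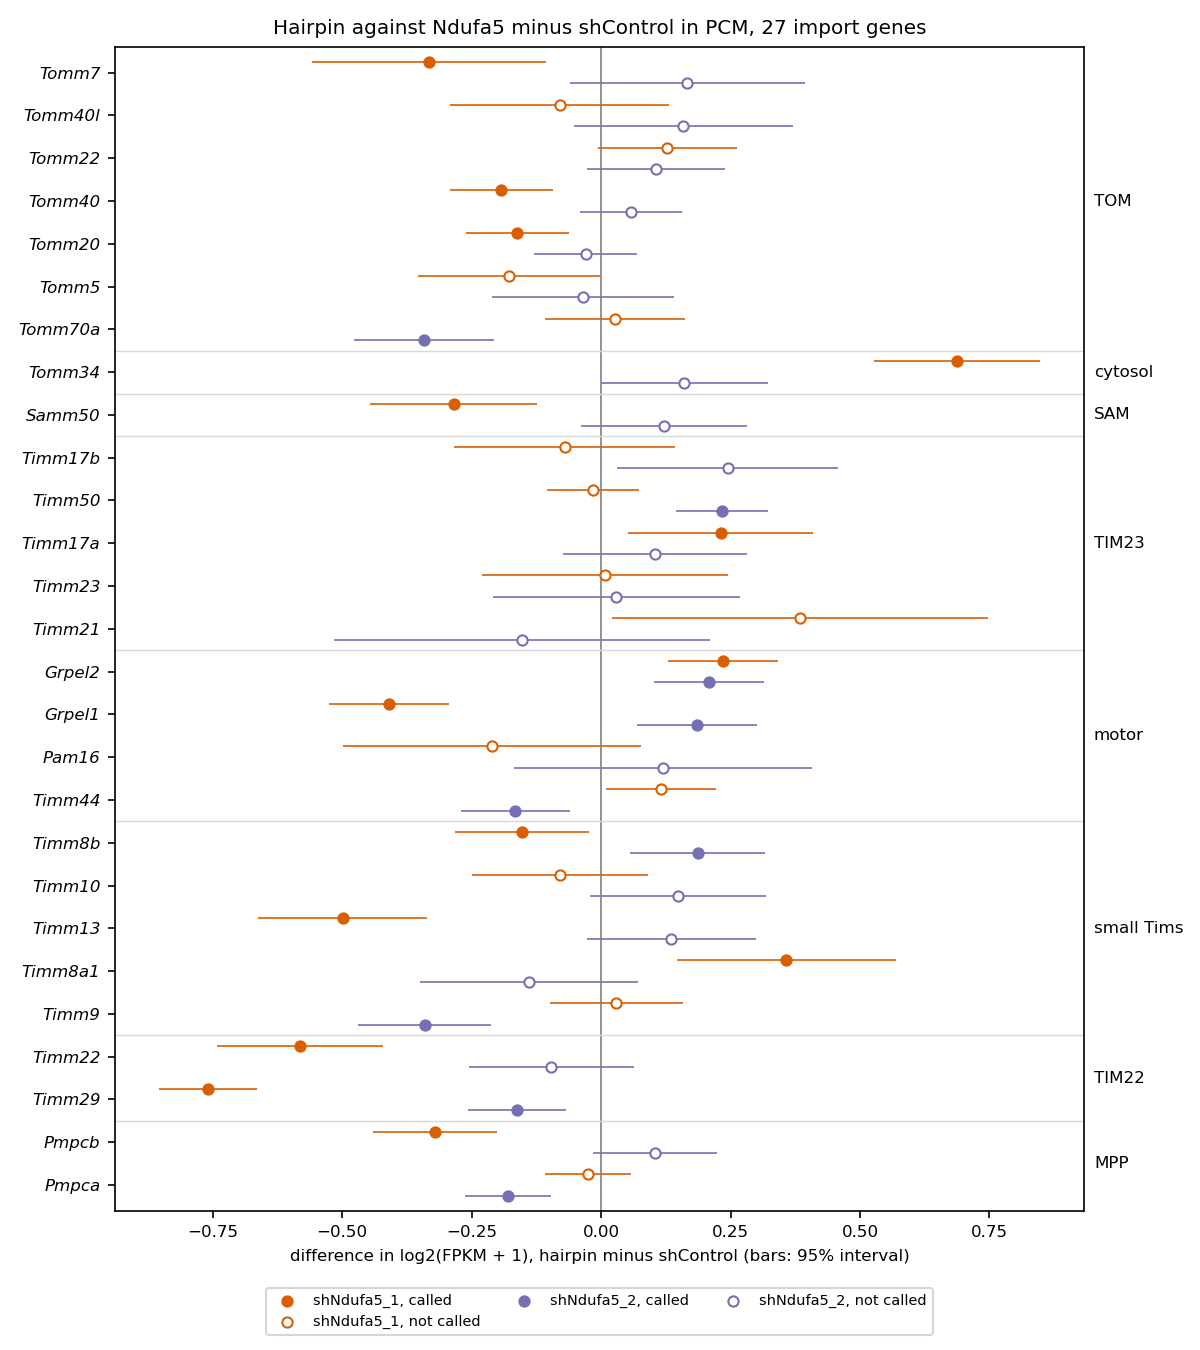
Difference of log2(FPKM + 1) from shControl within PCM for the 27 tested members, grouped by role, with 1 colour per hairpin. Points are limma's differences with 95% intervals, filled where called; with shNdufa5_1 Timm29 lies at -0.76 and Tomm34 at 0.69, while no called point of the libraries labelled shNdufa5_2 lies beyond -0.34 or 0.23.

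The difference between responses was tested itself, as the SCM response under a hairpin minus that under shControl. With shNdufa5_1, the signed difference was called negative for 9 of 27 members and positive for 0, and 18 did not pass the test, against 26.2% of all tested genes called, 15.5% lower and 10.7% higher. The median of the 27 was -0.15, against -0.0061 over all genes. Among libraries labelled shNdufa5_2, it was called negative for 14 and positive for 1, and 12 did not pass, against 43.0% of all genes called, 24.1% lower and 18.9% higher, with a median of -0.28 against -0.030. A negative difference is not always a smaller response. Timm8a1 did not pass with SCM in shControl, at 0.037 ± 0.10 (adjusted p = 0.764), and fell with it under shNdufa5_1. In the libraries labelled shNdufa5_2 Pmpca fell with SCM, while in shControl it did not pass, at -0.062 ± 0.039 (adjusted p = 0.177). Grpel1 fell with SCM in those libraries and rose with it in shControl, and Tomm70a, the positive call, fell with SCM in both. The shNdufa5_1 count was 5 without shControl PCM replicate 1, shNdufa5_1 SCM replicate 1 or shNdufa5_1 SCM replicate 2, and 4 without the 2 deepest libraries. Scaling by FPKM totals moved the median gene by 0.46 and 0.52 and gave 15 higher and 0 lower for shNdufa5_1 and 14 and 1 for shNdufa5_2. Recovered fragments gave 6 higher and 3 lower for shNdufa5_1 and 4 higher and 6 lower for shNdufa5_2. Quantile normalization gave 1 higher and 3 lower for shNdufa5_1 and 2 higher and 6 lower for shNdufa5_2. With the length and GC trend removed, 2 were positive and 5 negative for shNdufa5_1, with a members' median of -0.077. For shNdufa5_2 this gave 2 positive and 8 negative, with a median of -0.11.

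**Figure D4:**
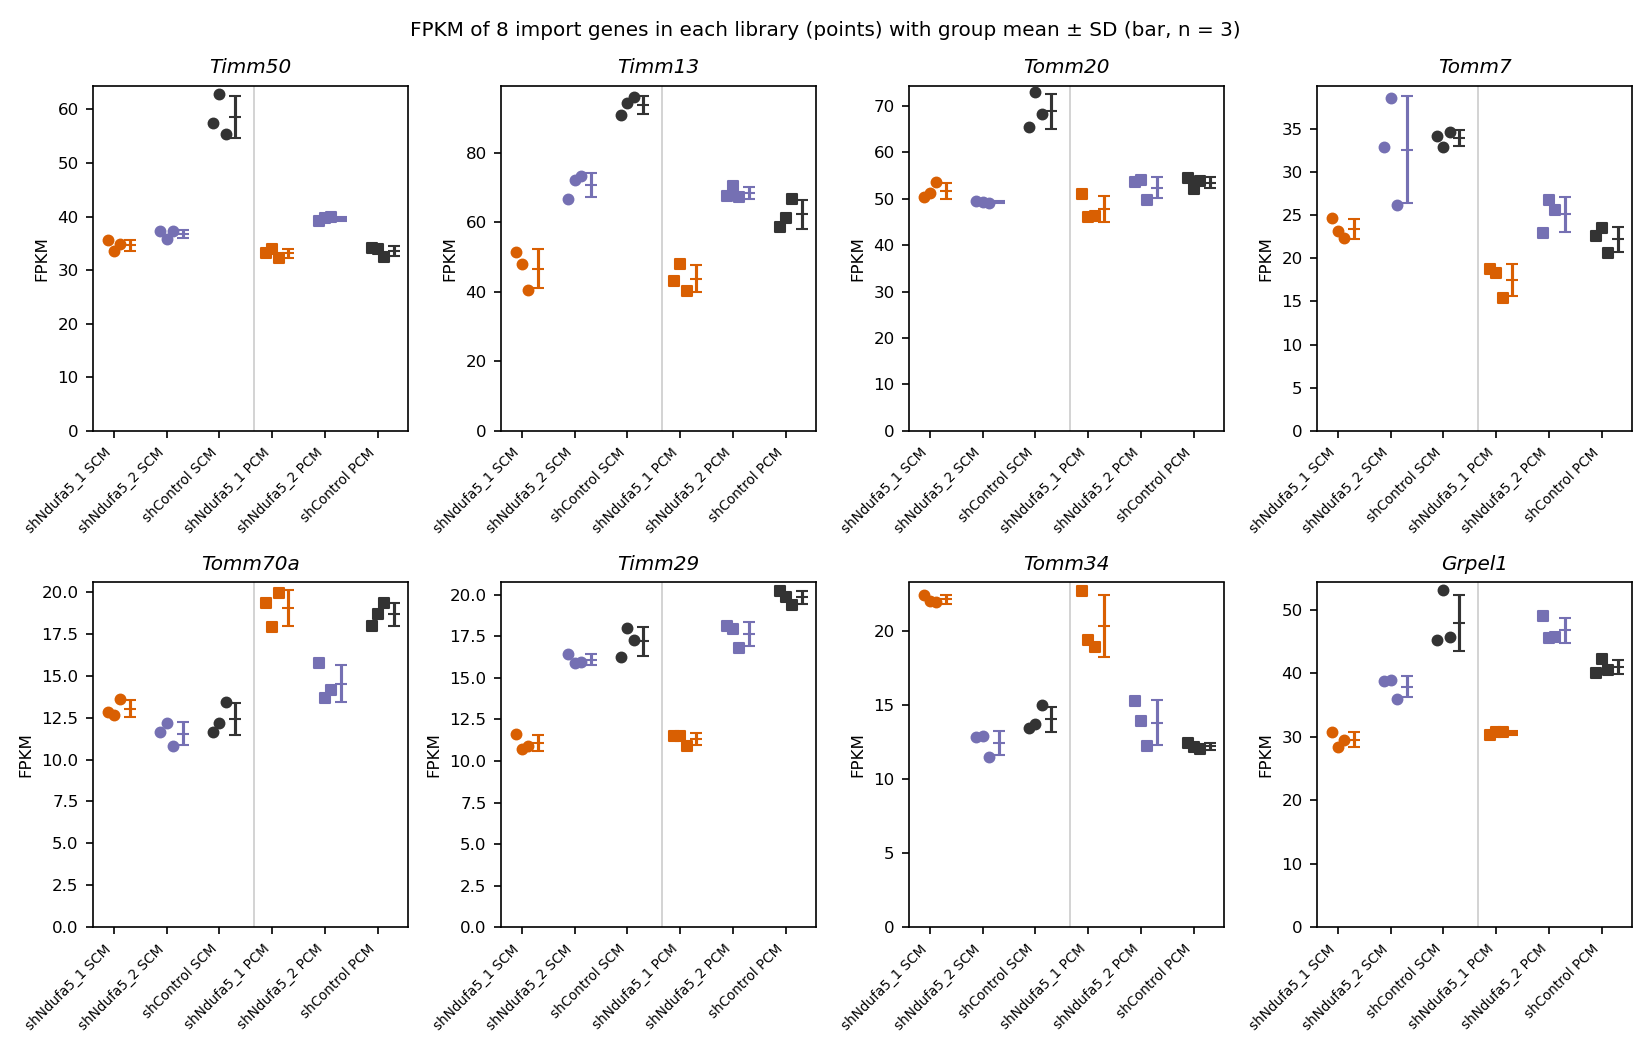
FPKM of 8 members in each of the 18 libraries, by hairpin and medium, with the SCM groups left of the PCM groups. Points are libraries, circles for SCM and squares for PCM, and bars give the group mean ± SD (n = 3); the shControl SCM libraries stand above all others for Timm50, Timm13 and Tomm20, and the shNdufa5_1 libraries stand below all others for Timm29 in both media.

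Within the TIM23 complex, Timm50 is the receptor that takes up presequences as they leave the TOM channel. In SCM, Timm50 measured 35.5, 33.6 and 34.8 FPKM with shNdufa5_1, 37.2, 35.9 and 37.2 FPKM in the libraries labelled shNdufa5_2, and 57.4, 62.8 and 55.3 FPKM with shControl. In PCM, Timm50 measured 33.1, 33.998 and 32.3 FPKM with shNdufa5_1, 39.1, 39.7 and 39.9 FPKM in the libraries labelled shNdufa5_2, and 34.1, 34.02 and 32.4 FPKM with shControl. The 3 shControl libraries in SCM were the highest of the 18 and did not overlap any other group. The difference between SCM and PCM was 0.79 ± 0.042 (adjusted p = 3.35e-10) with shControl, 0.062 ± 0.042 (adjusted p = 0.251) with shNdufa5_1 and -0.10 ± 0.042 (adjusted p = 0.0886) for the libraries labelled shNdufa5_2. Against shControl in SCM, Timm50 fell by 0.74 ± 0.042 (adjusted p = 6.27e-10) with shNdufa5_1 and by 0.65 ± 0.042 (adjusted p = 6.79e-08) in the libraries labelled shNdufa5_2. In PCM it did not pass with shNdufa5_1, at -0.015 ± 0.042 (adjusted p = 0.786), and rose in the libraries labelled shNdufa5_2 by 0.23 ± 0.042 (adjusted p = 4.63e-04). The response to SCM was lower than in shControl by 0.72 ± 0.059 (adjusted p = 4.94e-07) and 0.89 ± 0.059 (adjusted p = 3.89e-08) log2 units, the largest such differences among the members for both hairpins. With the trend on exon length and GC content removed, the SCM response in shControl was 0.44, the difference with shNdufa5_1 in SCM -0.46, both still called, and the difference of shNdufa5_2 in PCM 0.073, no longer called. Calls of Timm50 were lost with FPKM totals relative to the median gene for shNdufa5_2 in PCM (0.18). The lists of lost calls, here and for the members below, are not complete. They leave out calls lost without the filter on low values or in fits of the compared groups only. Calls lost without the variance trend or with a replicate block are left out as well.

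Timm17a and Timm17b are alternative structural subunits of the same complex. In SCM, Timm17b measured 17.7, 18.6 and 15.9 FPKM with shNdufa5_1, 19.8, 17.4 and 20.4 FPKM in the libraries labelled shNdufa5_2, and 23.4, 21.03 and 23.98 FPKM with shControl. In PCM, Timm17b measured 12.7, 15.7 and 12.9 FPKM with shNdufa5_1, 17.7, 16.1 and 18.3 FPKM in the libraries labelled shNdufa5_2, and 16.4, 14.9 and 12.3 FPKM with shControl. Timm17b was higher in every shControl SCM library than in any shControl PCM library, a difference of 0.62 ± 0.10 (adjusted p = 6.76e-05), and rose with SCM under shNdufa5_1 by 0.32 ± 0.10 (adjusted p = 0.0189). Without shNdufa5_1 PCM replicates 1 and 3 or shNdufa5_1 SCM replicates 1 and 2 (0.27 to 0.31, adjusted p 0.0550 to 0.0769) the second call was lost. Against shControl in SCM it fell with shNdufa5_1 by 0.37 ± 0.10 (adjusted p = 0.00456), and its response was lower in the libraries labelled shNdufa5_2 by 0.48 ± 0.14 (adjusted p = 0.0125). Removing the length and GC trend ended these 3 later calls, at 0.20, -0.19 and -0.28. In SCM, Timm17a stood at 6.38, 6.83 and 6.81 FPKM with shNdufa5_1, 5.99, 5.22 and 5.01 FPKM in the libraries labelled shNdufa5_2, and 5.12, 6.69 and 6.93 FPKM with shControl. In PCM, Timm17a stood at 7.74, 7.13 and 8.04 FPKM with shNdufa5_1, 6.70, 7.13 and 6.88 FPKM in the libraries labelled shNdufa5_2, and 6.53, 6.33 and 6.19 FPKM with shControl. Timm17a was lower in each SCM library labelled shNdufa5_2 than in any of its PCM libraries, by 0.31 ± 0.084 (adjusted p = 0.0155), and higher with shNdufa5_1 than with shControl in PCM by 0.23 ± 0.084 (adjusted p = 0.0296). The first call was lost without shNdufa5_2 PCM replicate 2 or shNdufa5_2 SCM replicates 2 and 3 (-0.29 to -0.26, adjusted p 0.0518 to 0.0646), and the second without shControl PCM replicates 2 and 3 or shNdufa5_1 PCM replicates 1 and 3 (0.20 to 0.23, adjusted p 0.0659 to 0.101) and at 0.092 with the trend removed. Calls of Timm17a were lost with FPKM totals relative to the median gene between media under shNdufa5_2 (-0.30) and for shNdufa5_1 in PCM (0.24). Those of Timm17a were lost without the 2 deepest libraries for shNdufa5_1 in PCM (0.23). Calls of Timm17b were lost with FPKM totals relative to the median gene in the shNdufa5_2 response (-0.39).

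Timm23 forms the channel of the complex, and Timm21 couples it to the TOM complex in yeast. In SCM, Timm23 measured 30.6, 27.8 and 28.5 FPKM with shNdufa5_1, 32.5, 22.1 and 23.1 FPKM in the libraries labelled shNdufa5_2, and 22.6, 25.5 and 21.8 FPKM with shControl. In PCM, Timm23 measured 30.4, 24.6 and 26.3 FPKM with shNdufa5_1, 28.5, 27.98 and 25.8 FPKM in the libraries labelled shNdufa5_2, and 26.8, 25.7 and 28.1 FPKM with shControl. In SCM every shNdufa5_1 library was above every shControl library, by 0.30 ± 0.11 (adjusted p = 0.0283), and the 3 libraries labelled shNdufa5_2 straddled shControl. In SCM, Timm21 was at 5.87, 7.03 and 6.62 FPKM with shNdufa5_1, 6.69, 4.11 and 5.05 FPKM in the libraries labelled shNdufa5_2, and 4.24, 5.66 and 3.81 FPKM with shControl. In PCM, Timm21 was at 8.52, 7.43 and 10.6 FPKM with shNdufa5_1, 5.62, 4.89 and 6.80 FPKM in the libraries labelled shNdufa5_2, and 6.63, 5.24 and 7.78 FPKM with shControl. Timm21 rose with shNdufa5_1 in SCM by 0.44 ± 0.17 (adjusted p = 0.0354) and was lower in SCM than in PCM with shControl by 0.44 ± 0.17 (adjusted p = 0.0358), although the libraries of the 2 media overlapped. The Timm23 call was lost without shControl SCM replicates 1 and 3 or shNdufa5_1 SCM replicates 1 and 3 (0.26 to 0.32, adjusted p 0.0520 to 0.0950). The Timm21 calls were lost without shControl SCM replicates 1 and 3 or shNdufa5_1 SCM replicates 2 and 3 (0.34 to 0.43, adjusted p 0.0792 to 0.136) in SCM, and without shControl PCM replicates 1 and 3 or shControl SCM replicates 1 and 3 (-0.42 to -0.32, adjusted p 0.0809 to 0.152) between media. With the trend removed the Timm21 differences were 0.29 and -0.14, neither called. Calls of Timm21 were lost with quantile normalization between media in shControl (-0.38) and for shNdufa5_1 in SCM (0.40), and with FPKM totals relative to the median gene between media in shControl (-0.45) and for shNdufa5_1 in SCM (0.44).

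In the motor that pulls proteins into the matrix, Grpel1 and Grpel2 are the nucleotide exchange factors of the mitochondrial Hsp70. In SCM, Grpel1 measured 30.7, 28.3 and 29.6 FPKM with shNdufa5_1, 38.7, 38.96 and 35.9 FPKM in the libraries labelled shNdufa5_2, and 45.2, 53.04 and 45.7 FPKM with shControl. In PCM, Grpel1 measured 30.3, 30.7 and 30.7 FPKM with shNdufa5_1, 48.996, 45.5 and 45.7 FPKM in the libraries labelled shNdufa5_2, and 40.1, 42.2 and 40.6 FPKM with shControl. The shNdufa5_1 libraries were below all shControl libraries in both media, whereas those labelled shNdufa5_2 were below shControl in SCM and above it in PCM. With shNdufa5_1 Grpel1 fell by 0.68 ± 0.055 (adjusted p = 3.69e-08) in SCM and by 0.41 ± 0.055 (adjusted p = 1.31e-05) in PCM. In the libraries labelled shNdufa5_2 it fell by 0.33 ± 0.055 (adjusted p = 3.14e-04) in SCM and rose by 0.19 ± 0.055 (adjusted p = 0.0152) in PCM, a call lost without shControl PCM replicate 1 or shNdufa5_2 PCM replicate 1 (0.15 to 0.17, adjusted p 0.0548 to 0.0709). Between media it rose with shControl by 0.22 ± 0.055 (adjusted p = 0.00268) and fell in the libraries labelled shNdufa5_2 by 0.30 ± 0.055 (adjusted p = 0.00125), and the response differed from that of shControl by -0.27 ± 0.077 (adjusted p = 0.0179) and -0.51 ± 0.077 (adjusted p = 8.03e-05). Calls of Grpel1 were lost with quantile normalization between media in shControl (-0.0048, the opposite sign), for shNdufa5_2 in PCM (0.085) and in the shNdufa5_1 response (-0.092), and with FPKM totals relative to the median gene between media in shControl (0.12), for shNdufa5_2 in PCM (0.13) and in the shNdufa5_1 response (-0.18).

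In SCM, Grpel2 measured 11.3, 11.9 and 10.9 FPKM with shNdufa5_1, 10.2, 9.80 and 10.2 FPKM in the libraries labelled shNdufa5_2, and 13.3, 12.5 and 13.5 FPKM with shControl. In PCM, Grpel2 measured 12.3, 12.6 and 12.2 FPKM with shNdufa5_1, 12.4, 12.3 and 11.6 FPKM in the libraries labelled shNdufa5_2, and 9.54, 10.6 and 10.96 FPKM with shControl. Grpel2, the second exchange factor, was lower in every hairpin library than in any shControl library in SCM and higher than all of them in PCM. Its differences from shControl were -0.19 ± 0.050 (adjusted p = 0.00344) with shNdufa5_1 and -0.35 ± 0.050 (adjusted p = 7.61e-05) with the label shNdufa5_2 in SCM, and 0.23 ± 0.050 (adjusted p = 9.50e-04) and 0.21 ± 0.050 (adjusted p = 0.00409) in PCM. Between media it rose with shControl by 0.31 ± 0.050 (adjusted p = 5.44e-05), fell in the libraries labelled shNdufa5_2 by 0.25 ± 0.050 (adjusted p = 0.00228) and did not pass with shNdufa5_1, at -0.11 ± 0.050 (adjusted p = 0.0808). The response differed from that of shControl by -0.43 ± 0.070 (adjusted p = 3.37e-04) and -0.56 ± 0.070 (adjusted p = 1.51e-05). Calls of Grpel2 were lost with FPKM totals relative to the median gene between media under shNdufa5_2 (-0.24), for shNdufa5_2 in PCM (0.18) and for shNdufa5_1 in SCM (-0.15).

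Timm44 docks the motor to the channel, and Pam16 restrains the J-protein that drives it. In SCM, Timm44 measured 18.9, 18.5 and 17.4 FPKM with shNdufa5_1, 13.2, 13.2 and 14.3 FPKM in the libraries labelled shNdufa5_2, and 14.6, 13.97 and 15.9 FPKM with shControl. In PCM, Timm44 measured 19.8, 20.2 and 19.3 FPKM with shNdufa5_1, 15.97, 15.9 and 16.4 FPKM in the libraries labelled shNdufa5_2, and 17.7, 17.7 and 19.1 FPKM with shControl. Timm44 was lower in SCM than in PCM in shControl by 0.28 ± 0.050 (adjusted p = 1.56e-04) and under the label shNdufa5_2 by 0.23 ± 0.050 (adjusted p = 0.00380), with no overlap between media. With shNdufa5_1 in SCM it rose above shControl by 0.29 ± 0.050 (adjusted p = 1.25e-04). In PCM it was lower in the libraries labelled shNdufa5_2 by 0.17 ± 0.050 (adjusted p = 0.0163), a call lost without shControl PCM replicate 3 (-0.13, adjusted p 0.0825). In SCM, Pam16 was at 7.58, 7.71 and 7.18 FPKM with shNdufa5_1, 10.7, 7.87 and 10.2 FPKM in the libraries labelled shNdufa5_2, and 8.40, 12.9 and 10.6 FPKM with shControl. In PCM, Pam16 was at 7.95, 8.10 and 7.86 FPKM with shNdufa5_1, 10.7, 10.9 and 9.23 FPKM in the libraries labelled shNdufa5_2, and 7.75, 9.66 and 10.98 FPKM with shControl. In SCM all shNdufa5_1 libraries of Pam16 were below shControl, by 0.44 ± 0.14 (adjusted p = 0.0114), and those labelled shNdufa5_2 overlapped it. The call was lost without shControl SCM replicate 2 (-0.30, adjusted p 0.0717) and at -0.22 with the length and GC trend removed. Those of Pam16 were lost without the 2 deepest libraries for shNdufa5_1 in SCM (-0.30). Calls of Timm44 were lost with FPKM totals relative to the median gene between media under shNdufa5_2 (-0.22) and for shNdufa5_2 in PCM (-0.21).

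Among the small chaperones of the intermembrane space, Timm13 works in a complex with Timm8 proteins that carries the precursor of Timm23. In SCM, Timm13 measured 51.5, 47.8 and 40.5 FPKM with shNdufa5_1, 66.8, 72.01 and 73.3 FPKM in the libraries labelled shNdufa5_2, and 90.8, 94.3 and 95.95 FPKM with shControl. In PCM, Timm13 measured 43.1, 47.9 and 40.3 FPKM with shNdufa5_1, 67.5, 70.3 and 67.2 FPKM in the libraries labelled shNdufa5_2, and 58.5, 61.3 and 66.8 FPKM with shControl. The shNdufa5_1 libraries lay below shControl in both media, and the libraries labelled shNdufa5_2 lay below shControl in SCM and above it in PCM. Against shControl, Timm13 fell with shNdufa5_1 by 0.999 ± 0.077 (adjusted p = 2.06e-08) in SCM and by 0.50 ± 0.077 (adjusted p = 5.32e-05) in PCM, and under the label shNdufa5_2 by 0.40 ± 0.077 (adjusted p = 9.46e-04) in SCM. With SCM it rose in shControl by 0.58 ± 0.077 (adjusted p = 8.14e-06), and the response differed from that by -0.50 ± 0.11 (adjusted p = 0.00300) with shNdufa5_1 and -0.54 ± 0.11 (adjusted p = 9.52e-04) with the label shNdufa5_2. With the length and GC trend removed, the fall with shNdufa5_1 in SCM stayed called at -0.57, while the rise in shControl (0.084), the fall with the label shNdufa5_2 (-0.17) and the response differences (-0.23 and -0.084) were not called. Calls of Timm13 were lost with quantile normalization for shNdufa5_2 in SCM (-0.23), in the shNdufa5_1 response (-0.25) and in the shNdufa5_2 response (-0.24).

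In SCM, Timm8b measured 53.2, 53.6 and 56.5 FPKM with shNdufa5_1, 63.8, 57.8 and 65.2 FPKM in the libraries labelled shNdufa5_2, and 75.4, 72.4 and 68.9 FPKM with shControl. In PCM, Timm8b measured 50.1, 54.7 and 54.6 FPKM with shNdufa5_1, 65.1, 74.7 and 63.1 FPKM in the libraries labelled shNdufa5_2, and 57.98, 60.8 and 58.6 FPKM with shControl. Timm8b, a partner of Timm13, had its highest mean in the shControl SCM libraries, and shControl did not overlap with shNdufa5_1 in either medium. It fell with shNdufa5_1 by 0.40 ± 0.061 (adjusted p = 3.48e-05) in SCM and by 0.15 ± 0.061 (adjusted p = 0.0464) in PCM. In the libraries labelled shNdufa5_2 it fell by 0.21 ± 0.061 (adjusted p = 0.0142) in SCM and rose by 0.19 ± 0.061 (adjusted p = 0.0259) in PCM. The SCM response in shControl was 0.28 ± 0.061 (adjusted p = 8.42e-04), and that under the hairpins was lower by 0.25 ± 0.086 (adjusted p = 0.0441) and 0.40 ± 0.086 (adjusted p = 0.00161). With a transcript of 518 exon bases, the shortest of the members, Timm8b lost all 7 of these calls when the length and GC trend was removed, at -0.043, -0.051, -0.081, -0.016, -0.10, 0.0081 and -0.065 in that order. Leaving out single libraries ended the PCM calls for shNdufa5_1 without shControl PCM replicates 1, 2 and 3 or shNdufa5_1 PCM replicates 1 and 3 (-0.17 to -0.11, adjusted p 0.0535 to 0.179) and for the label shNdufa5_2 without shControl PCM replicates 1 and 3 or shNdufa5_2 PCM replicate 2 (0.11 to 0.18, adjusted p 0.0685 to 0.140). It ended the SCM call for the label shNdufa5_2 without shControl SCM replicate 1 or shNdufa5_2 SCM replicate 2 (-0.18 to -0.16, adjusted p 0.0578 to 0.0745), and the response difference for shNdufa5_1 without shControl PCM replicates 1, 2 and 3, shControl SCM replicates 1 and 2, shNdufa5_1 PCM replicates 2 and 3 or shNdufa5_1 SCM replicates 1 and 2 (-0.27 to -0.22, adjusted p 0.0505 to 0.0992). Calls of Timm8b were lost with quantile normalization between media in shControl (-0.0048, the opposite sign), for shNdufa5_1 in PCM (-0.10), for shNdufa5_2 in PCM (0.069), for shNdufa5_1 in SCM (-0.13), for shNdufa5_2 in SCM (-0.062), in the shNdufa5_1 response (-0.026) and in the shNdufa5_2 response (-0.13), and with FPKM totals relative to the median gene between media in shControl (0.18), for shNdufa5_1 in PCM (-0.17), for shNdufa5_2 in PCM (0.13), for shNdufa5_2 in SCM (-0.15), in the shNdufa5_1 response (-0.16) and in the shNdufa5_2 response (-0.28). Those of Timm8b were lost with recovered fragments relative to the median gene for shNdufa5_1 in PCM (-0.15) and in the shNdufa5_1 response (-0.21), and without the 2 deepest libraries for shNdufa5_1 in PCM (-0.13) and in the shNdufa5_1 response (-0.27).

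In SCM, Timm8a1 measured 14.4, 15.004 and 16.6 FPKM with shNdufa5_1, 13.1, 13.8 and 13.1 FPKM in the libraries labelled shNdufa5_2, and 15.96, 19.2 and 14.2 FPKM with shControl. In PCM, Timm8a1 measured 19.6, 22.9 and 19.7 FPKM with shNdufa5_1, 14.9, 15.1 and 13.2 FPKM in the libraries labelled shNdufa5_2, and 14.1, 16.1 and 17.8 FPKM with shControl. Timm8a1, whose human counterpart is mutated in a syndrome of deafness and dystonia, was higher with shNdufa5_1 in PCM than in any other group. It rose there over shControl by 0.36 ± 0.10 (adjusted p = 0.00656), fell with SCM under shNdufa5_1 by 0.41 ± 0.10 (adjusted p = 0.00378) and fell in the SCM libraries labelled shNdufa5_2 by 0.28 ± 0.10 (adjusted p = 0.0414). The response difference of shNdufa5_1 was -0.45 ± 0.14 (adjusted p = 0.0280). The shNdufa5_2 call was lost without shControl SCM replicates 1 and 2 or shNdufa5_2 SCM replicates 1, 2 and 3 (-0.30 to -0.17, adjusted p 0.0629 to 0.206) and at -0.17 with the trend removed, and the response difference without shControl PCM replicate 1, shControl SCM replicate 2, shNdufa5_1 PCM replicate 2 or shNdufa5_1 SCM replicates 1 and 2 (-0.43 to -0.34, adjusted p 0.0562 to 0.0749) and at -0.34 with the trend removed. Calls of Timm8a1 were lost with quantile normalization for shNdufa5_2 in SCM (-0.21), and with FPKM totals relative to the median gene for shNdufa5_2 in SCM (-0.23) and in the shNdufa5_1 response (-0.38). Those of Timm8a1 were lost with recovered fragments relative to the median gene for shNdufa5_2 in SCM (-0.25), and without the 2 deepest libraries for shNdufa5_2 in SCM (-0.17) and in the shNdufa5_1 response (-0.34).

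Timm9 and Timm10 form the hexamer that hands carrier proteins to the inner membrane. In SCM, Timm9 measured 4.88, 4.84 and 4.93 FPKM with shNdufa5_1, 3.70, 3.78 and 4.03 FPKM in the libraries labelled shNdufa5_2, and 4.17, 4.23 and 4.73 FPKM with shControl. In PCM, Timm9 measured 5.06, 5.64 and 5.60 FPKM with shNdufa5_1, 4.18, 4.15 and 3.61 FPKM in the libraries labelled shNdufa5_2, and 5.24, 5.35 and 5.30 FPKM with shControl. Timm9 was lower in SCM than in PCM with shControl by 0.23 ± 0.060 (adjusted p = 0.00385), and lower in each PCM library labelled shNdufa5_2 than in any of shControl, by 0.34 ± 0.060 (adjusted p = 4.45e-04). The first difference was, with the length and GC trend removed, 0.016, not called. In SCM, Timm10 was at 23.7, 23.6 and 24.8 FPKM with shNdufa5_1, 29.4, 32.5 and 26.5 FPKM in the libraries labelled shNdufa5_2, and 32.9, 34.99 and 28.7 FPKM with shControl. In PCM, Timm10 was at 29.5, 26.7 and 27.1 FPKM with shNdufa5_1, 30.4, 34.8 and 33.01 FPKM in the libraries labelled shNdufa5_2, and 27.2, 31.1 and 29.96 FPKM with shControl. In SCM Timm10 was lower in every shNdufa5_1 library than in any shControl library, by 0.40 ± 0.080 (adjusted p = 4.32e-04), with a response difference of -0.32 ± 0.11 (adjusted p = 0.0462). With the trend removed these were 0.027 and -0.052, neither called, and the response difference was also lost without shControl PCM replicates 1 and 3, shControl SCM replicates 1 and 2, shNdufa5_1 PCM replicates 1 and 3 or shNdufa5_1 SCM replicates 1, 2 and 3 (-0.35 to -0.26, adjusted p 0.0582 to 0.114). Calls of Timm10 were lost with quantile normalization in the shNdufa5_1 response (-0.22), and with FPKM totals relative to the median gene in the shNdufa5_1 response (-0.24). Those of Timm10 were lost with recovered fragments relative to the median gene in the shNdufa5_1 response (-0.29), and without the 2 deepest libraries in the shNdufa5_1 response (-0.30).

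Timm22 is the channel for carrier proteins, and Timm29 is a subunit of its complex known from metazoans. In SCM, Timm29 measured 11.6, 10.7 and 10.9 FPKM with shNdufa5_1, 16.5, 15.9 and 15.9 FPKM in the libraries labelled shNdufa5_2, and 16.3, 17.98 and 17.3 FPKM with shControl. In PCM, Timm29 measured 11.5, 11.5 and 10.9 FPKM with shNdufa5_1, 18.1, 17.96 and 16.8 FPKM in the libraries labelled shNdufa5_2, and 20.2, 19.9 and 19.4 FPKM with shControl. The shNdufa5_1 libraries were the lowest of all groups in both media, and the libraries labelled shNdufa5_2 overlapped shControl in SCM and lay below it in PCM. Timm29 fell with shNdufa5_1 by 0.59 ± 0.044 (adjusted p = 1.62e-08) in SCM and by 0.76 ± 0.044 (adjusted p = 1.84e-09) in PCM. In PCM it was lower by 0.16 ± 0.044 (adjusted p = 0.00994) in the libraries labelled shNdufa5_2, a call lost without shNdufa5_2 PCM replicate 3 (-0.13, adjusted p 0.0532). With SCM it fell in shControl by 0.20 ± 0.044 (adjusted p = 0.00123). In SCM, Timm22 was at 10.3, 8.79 and 9.07 FPKM with shNdufa5_1, 12.6, 12.2 and 11.02 FPKM in the libraries labelled shNdufa5_2, and 13.6, 14.05 and 12.8 FPKM with shControl. In PCM, Timm22 was at 10.8, 10.6 and 8.74 FPKM with shNdufa5_1, 14.5, 14.7 and 14.1 FPKM in the libraries labelled shNdufa5_2, and 14.6, 16.2 and 15.7 FPKM with shControl. Timm22 was likewise lower in each shNdufa5_1 library than in any shControl library, by 0.48 ± 0.075 (adjusted p = 4.57e-05) in SCM and 0.58 ± 0.075 (adjusted p = 9.28e-06) in PCM. With SCM it fell in shControl by 0.19 ± 0.075 (adjusted p = 0.0404) and under the label shNdufa5_2 by 0.26 ± 0.075 (adjusted p = 0.0213). These smaller calls were lost without shControl PCM replicates 2 and 3 or shControl SCM replicates 1 and 3 (-0.20 to -0.15, adjusted p 0.0657 to 0.136), and without shNdufa5_2 PCM replicates 1 and 2 or shNdufa5_2 SCM replicate 3 (-0.25 to -0.21, adjusted p 0.0579 to 0.0934). The second was also lost at -0.19 with the length and GC trend removed. Calls of Timm22 were lost with FPKM totals relative to the median gene between media under shNdufa5_2 (-0.25). Those of Timm22 were lost without the 2 deepest libraries between media in shControl (-0.18).

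At the outer membrane, Tomm20 and Tomm22 are the receptors for presequences. In SCM, Tomm20 measured 50.4, 51.2 and 53.6 FPKM with shNdufa5_1, 49.6, 49.4 and 49.2 FPKM in the libraries labelled shNdufa5_2, and 65.4, 72.9 and 68.2 FPKM with shControl. In PCM, Tomm20 measured 50.9, 46.03 and 46.3 FPKM with shNdufa5_1, 53.6, 53.9 and 49.7 FPKM in the libraries labelled shNdufa5_2, and 54.4, 52.2 and 53.9 FPKM with shControl. The shControl SCM libraries were above all others. With SCM Tomm20 rose in shControl by 0.36 ± 0.047 (adjusted p = 7.69e-06). Against shControl in SCM it fell with shNdufa5_1 by 0.41 ± 0.047 (adjusted p = 1.87e-06) and under the label shNdufa5_2 by 0.47 ± 0.047 (adjusted p = 3.50e-06), and in PCM it fell with shNdufa5_1 by 0.16 ± 0.047 (adjusted p = 0.00838). The response was lower than in shControl by 0.24 ± 0.066 (adjusted p = 0.0125) and 0.44 ± 0.066 (adjusted p = 7.67e-05). Calls of Tomm20 were lost with quantile normalization between media in shControl (0.074), for shNdufa5_1 in PCM (-0.10), in the shNdufa5_1 response (-0.025) and in the shNdufa5_2 response (-0.17), and with FPKM totals relative to the median gene for shNdufa5_1 in PCM (-0.17), in the shNdufa5_1 response (-0.16) and in the shNdufa5_2 response (-0.32). Those of Tomm20 were lost without the 2 deepest libraries in the shNdufa5_1 response (-0.18).

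In SCM, Tomm22 measured 49.5, 45.4 and 51.2 FPKM with shNdufa5_1, 38.9, 42.6 and 43.3 FPKM in the libraries labelled shNdufa5_2, and 50.004, 53.7 and 56.1 FPKM with shControl. In PCM, Tomm22 measured 43.4, 41.9 and 48.1 FPKM with shNdufa5_1, 43.5, 42.2 and 45.4 FPKM in the libraries labelled shNdufa5_2, and 38.2, 41.2 and 42.2 FPKM with shControl. Tomm22 rose with SCM in shControl, without overlap, by 0.39 ± 0.063 (adjusted p = 7.22e-05), and in SCM the libraries labelled shNdufa5_2 were all below shControl, by 0.35 ± 0.063 (adjusted p = 6.10e-04). With shNdufa5_1 in SCM it did not pass, at -0.13 ± 0.063 (adjusted p = 0.0928). The response was lower than in shControl by 0.26 ± 0.089 (adjusted p = 0.0454) and 0.46 ± 0.089 (adjusted p = 7.43e-04), and the first of these was lost without shControl PCM replicates 1 and 2, shControl SCM replicates 2 and 3, shNdufa5_1 PCM replicates 1 and 3 or shNdufa5_1 SCM replicates 1 and 2 (-0.27 to -0.20, adjusted p 0.0563 to 0.114). Calls of Tomm22 were lost with quantile normalization between media in shControl (0.14), in the shNdufa5_1 response (-0.065) and in the shNdufa5_2 response (-0.21), and with FPKM totals relative to the median gene for shNdufa5_2 in SCM (-0.29), in the shNdufa5_1 response (-0.17) and in the shNdufa5_2 response (-0.34). Those of Tomm22 were lost with recovered fragments relative to the median gene in the shNdufa5_1 response (-0.22), and without the 2 deepest libraries in the shNdufa5_1 response (-0.26). With the length and GC trend removed that response difference was -0.20, not called.

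Tomm70a is the receptor for carrier proteins and binds the cytosolic chaperones Hsp70 and Hsp90. In SCM, Tomm70a measured 12.8, 12.6 and 13.6 FPKM with shNdufa5_1, 11.6, 12.2 and 10.8 FPKM in the libraries labelled shNdufa5_2, and 11.6, 12.2 and 13.5 FPKM with shControl. In PCM, Tomm70a measured 19.3, 17.9 and 19.9 FPKM with shNdufa5_1, 15.8, 13.7 and 14.2 FPKM in the libraries labelled shNdufa5_2, and 17.9, 18.7 and 19.3 FPKM with shControl. With shControl, with shNdufa5_1 and with the label shNdufa5_2, every SCM library was below every PCM library. The differences were -0.55 ± 0.063 (adjusted p = 2.03e-06), -0.51 ± 0.063 (adjusted p = 1.55e-05) and -0.31 ± 0.063 (adjusted p = 0.00282) in that order. In PCM the libraries labelled shNdufa5_2 were below shControl by 0.34 ± 0.063 (adjusted p = 6.44e-04), and their response was less negative than that of shControl by 0.25 ± 0.090 (adjusted p = 0.0380). With the length and GC trend removed the response in shControl was -0.20, the PCM difference -0.11, no longer called, and the response difference -0.17, with the opposite sign. That response difference was also lost without shControl PCM replicates 2 and 3, shControl SCM replicates 1 and 2, shNdufa5_2 PCM replicates 2 and 3 or shNdufa5_2 SCM replicates 1 and 2 (0.20 to 0.24, adjusted p 0.0629 to 0.0951). Calls of Tomm70a were lost with FPKM totals relative to the median gene between media under shNdufa5_2 (-0.30) and in the shNdufa5_2 response (0.34). Those of Tomm70a were lost without the 2 deepest libraries in the shNdufa5_2 response (0.23).

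Tomm7 and Tomm5 are small subunits of the TOM complex, and Tomm7 is known to hold the kinase PINK1 on damaged mitochondria. In SCM, Tomm7 measured 24.6, 23.2 and 22.3 FPKM with shNdufa5_1, 32.96, 38.6 and 26.2 FPKM in the libraries labelled shNdufa5_2, and 34.2, 32.9 and 34.7 FPKM with shControl. In PCM, Tomm7 measured 18.8, 18.3 and 15.4 FPKM with shNdufa5_1, 22.9, 26.8 and 25.6 FPKM in the libraries labelled shNdufa5_2, and 22.6, 23.5 and 20.6 FPKM with shControl. Tomm7 was higher in SCM under each hairpin, by 0.59 ± 0.11 (adjusted p = 1.89e-04) with shControl, 0.40 ± 0.11 (adjusted p = 0.00679) with shNdufa5_1 and 0.35 ± 0.11 (adjusted p = 0.0264) in the libraries labelled shNdufa5_2, where the media overlapped. That last call was lost without shNdufa5_2 PCM replicates 1 and 3 or shNdufa5_2 SCM replicates 1 and 2 (0.22 to 0.37, adjusted p 0.0515 to 0.130). With shNdufa5_1 it fell below shControl by 0.52 ± 0.11 (adjusted p = 5.77e-04) in SCM and by 0.33 ± 0.11 (adjusted p = 0.0158) in PCM, and the PCM call was lost without shControl PCM replicate 2 or shNdufa5_1 PCM replicate 3 (-0.29 to -0.25, adjusted p 0.0598 to 0.0834). Calls of Tomm7 were lost with FPKM totals relative to the median gene between media under shNdufa5_2 (0.36). Those of Tomm7 were lost without the 2 deepest libraries for shNdufa5_1 in PCM (-0.29).

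In SCM, Tomm5 measured 37.9, 30.8 and 34.8 FPKM with shNdufa5_1, 34.8, 38.9 and 35.3 FPKM in the libraries labelled shNdufa5_2, and 42.6, 48.9 and 38.9 FPKM with shControl. In PCM, Tomm5 measured 39.4, 35.9 and 39.97 FPKM with shNdufa5_1, 39.8, 42.5 and 45.5 FPKM in the libraries labelled shNdufa5_2, and 42.3, 43.7 and 44.8 FPKM with shControl. Tomm5 fell in SCM by 0.32 ± 0.083 (adjusted p = 0.00322) with shNdufa5_1 and by 0.25 ± 0.083 (adjusted p = 0.0305) with the label shNdufa5_2, and all libraries of both were below those of shControl. With the trend removed these were -0.080 and -0.15, neither called, and the second was lost without shControl SCM replicates 1 and 2 or shNdufa5_2 SCM replicates 1 and 3 (-0.26 to -0.16, adjusted p 0.0537 to 0.155). Calls of Tomm5 were lost with quantile normalization for shNdufa5_1 in SCM (-0.15) and for shNdufa5_2 in SCM (-0.12), and with FPKM totals relative to the median gene for shNdufa5_1 in SCM (-0.26) and for shNdufa5_2 in SCM (-0.19). Those of Tomm5 were lost without the 2 deepest libraries for shNdufa5_2 in SCM (-0.16).

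Tomm40 forms the channel of the TOM complex. In SCM, Tomm40 measured 23.7, 23.8 and 22.7 FPKM with shNdufa5_1, 25.3, 26.8 and 26.2 FPKM in the libraries labelled shNdufa5_2, and 30.5, 30.4 and 30.7 FPKM with shControl. In PCM, Tomm40 measured 23.03, 25.4 and 22.3 FPKM with shNdufa5_1, 29.6, 27.6 and 27.4 FPKM in the libraries labelled shNdufa5_2, and 26.1, 27.999 and 27.1 FPKM with shControl. Tomm40 fell with shNdufa5_1, without overlap, by 0.37 ± 0.047 (adjusted p = 4.91e-06) in SCM and 0.19 ± 0.047 (adjusted p = 0.00261) in PCM, and under the label shNdufa5_2 by 0.22 ± 0.047 (adjusted p = 0.00215) in SCM. With SCM it rose in shControl by 0.17 ± 0.047 (adjusted p = 0.00532), and the response was lower in the libraries labelled shNdufa5_2 by 0.28 ± 0.066 (adjusted p = 0.00325). Once the trend was removed, the response in shControl was 0.011 and the response difference -0.11, neither called. In SCM, Tomm40l was at 3.13, 2.99 and 3.52 FPKM with shNdufa5_1, 2.79, 3.25 and 2.51 FPKM in the libraries labelled shNdufa5_2, and 3.11, 3.79 and 4.07 FPKM with shControl. In PCM, Tomm40l was at 2.32, 2.32 and 2.47 FPKM with shNdufa5_1, 3.30, 2.50 and 3.18 FPKM in the libraries labelled shNdufa5_2, and 2.81, 2.39 and 2.50 FPKM with shControl. Tomm40l, whose exons largely lie in another gene, rose with SCM by 0.38 ± 0.10 (adjusted p = 0.00362) in shControl and by 0.32 ± 0.10 (adjusted p = 0.0172) with shNdufa5_1. For the label shNdufa5_2 it fell below shControl in SCM by 0.27 ± 0.10 (adjusted p = 0.0452), although the groups overlapped, with a response difference of -0.43 ± 0.14 (adjusted p = 0.0214). These 3 calls were lost with the trend removed, at 0.22, -0.23 and -0.34. They were also lost without shNdufa5_1 SCM replicate 3 (0.27, adjusted p 0.0717), without shControl SCM replicates 2 and 3 or shNdufa5_2 SCM replicates 1 and 3 (-0.26 to -0.21, adjusted p 0.0993 to 0.166), and without shControl PCM replicate 2, shControl SCM replicate 3, shNdufa5_2 PCM replicates 1 and 3 or shNdufa5_2 SCM replicate 3 (-0.40 to -0.37, adjusted p 0.0505 to 0.0562), in the same order. Calls of Tomm40 were lost with quantile normalization between media in shControl (0.039), for shNdufa5_2 in SCM (-0.13) and in the shNdufa5_2 response (-0.13), and with FPKM totals relative to the median gene between media in shControl (0.080), for shNdufa5_2 in SCM (-0.17) and in the shNdufa5_2 response (-0.17). Calls of Tomm40l were lost with FPKM totals relative to the median gene between media under shNdufa5_1 (0.32), for shNdufa5_2 in SCM (-0.28) and in the shNdufa5_2 response (-0.46). Those of Tomm40l were lost with recovered fragments relative to the median gene for shNdufa5_2 in SCM (-0.26), and without the 2 deepest libraries for shNdufa5_2 in SCM (-0.25) and in the shNdufa5_2 response (-0.37).

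Tomm34 is a cytosolic cochaperone that binds Hsp70 and Hsp90. In SCM, Tomm34 measured 22.5, 22.05 and 21.96 FPKM with shNdufa5_1, 12.9, 12.9 and 11.5 FPKM in the libraries labelled shNdufa5_2, and 13.5, 13.7 and 15.04 FPKM with shControl. In PCM, Tomm34 measured 22.7, 19.4 and 18.9 FPKM with shNdufa5_1, 15.3, 13.9 and 12.3 FPKM in the libraries labelled shNdufa5_2, and 12.5, 12.2 and 12.02 FPKM with shControl. With shNdufa5_1 all 6 libraries were above every library of the other 2 hairpins. Tomm34 rose over shControl by 0.62 ± 0.075 (adjusted p = 3.46e-06) in SCM and by 0.69 ± 0.075 (adjusted p = 1.80e-06) in PCM. Under the label shNdufa5_2 it did not pass in SCM, at -0.17 ± 0.075 (adjusted p = 0.105), or in PCM, at 0.16 ± 0.075 (adjusted p = 0.111). With SCM it rose in shControl by 0.19 ± 0.075 (adjusted p = 0.0411), and the response with the label shNdufa5_2 was lower by 0.33 ± 0.11 (adjusted p = 0.0221). With the trend removed these were -0.082 and -0.047, neither called, and they were lost without shControl PCM replicates 1, 2 and 3 or shControl SCM replicates 2 and 3 (0.14 to 0.20, adjusted p 0.0579 to 0.154), and without shControl SCM replicate 3, shNdufa5_2 PCM replicate 1 or shNdufa5_2 SCM replicate 3 (-0.28 to -0.25, adjusted p 0.0567 to 0.0610). Calls of Tomm34 were lost with quantile normalization between media in shControl (0.15) and in the shNdufa5_2 response (-0.26), and with FPKM totals relative to the median gene between media in shControl (0.12) and in the shNdufa5_2 response (-0.24). Those of Tomm34 were lost with recovered fragments relative to the median gene between media in shControl (0.16), and without the 2 deepest libraries between media in shControl (0.20) and in the shNdufa5_2 response (-0.34).

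Samm50 is the core of the SAM complex, which inserts barrel-shaped proteins into the outer membrane. In SCM, Samm50 measured 15.02, 15.96 and 13.8 FPKM with shNdufa5_1, 18.3, 16.8 and 18.5 FPKM in the libraries labelled shNdufa5_2, and 20.4, 21.97 and 19.1 FPKM with shControl. In PCM, Samm50 measured 13.3, 16.1 and 13.4 FPKM with shNdufa5_1, 19.1, 18.7 and 19.7 FPKM in the libraries labelled shNdufa5_2, and 16.6, 17.1 and 19.001 FPKM with shControl. Samm50 was lower with shNdufa5_1 than with shControl, without overlap, by 0.43 ± 0.076 (adjusted p = 1.38e-04) in SCM and 0.28 ± 0.076 (adjusted p = 0.00497) in PCM. With SCM it rose in shControl by 0.21 ± 0.076 (adjusted p = 0.0239), and the response was lower in the libraries labelled shNdufa5_2 by 0.31 ± 0.11 (adjusted p = 0.0298). With the trend removed these were 0.12 and -0.23, neither called, and they were lost without shControl PCM replicates 1 and 2 or shControl SCM replicate 2 (0.16 to 0.19, adjusted p 0.0696 to 0.108), and without shControl PCM replicates 1 and 2, shControl SCM replicate 2, shNdufa5_2 PCM replicate 3 or shNdufa5_2 SCM replicate 2 (-0.29 to -0.26, adjusted p 0.0610 to 0.0782). Calls of Samm50 were lost with quantile normalization between media in shControl (0.11) and in the shNdufa5_2 response (-0.21), and with FPKM totals relative to the median gene between media in shControl (0.13) and in the shNdufa5_2 response (-0.21). Those of Samm50 were lost with recovered fragments relative to the median gene in the shNdufa5_2 response (-0.26), and without the 2 deepest libraries between media in shControl (0.14) and in the shNdufa5_2 response (-0.24).

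Pmpca and Pmpcb are the subunits of the peptidase that removes presequences in the matrix. In SCM, Pmpca measured 44.6, 43.9 and 44.7 FPKM with shNdufa5_1, 33.4, 34.6 and 34.5 FPKM in the libraries labelled shNdufa5_2, and 42.7, 45.3 and 47.6 FPKM with shControl. In PCM, Pmpca measured 46.3, 45.2 and 47.6 FPKM with shNdufa5_1, 42.5, 39.7 and 42.5 FPKM in the libraries labelled shNdufa5_2, and 46.3, 47.5 and 47.8 FPKM with shControl. The libraries labelled shNdufa5_2 were below those of both other hairpins in each medium. Pmpca fell there against shControl by 0.39 ± 0.039 (adjusted p = 3.56e-06) in SCM and by 0.18 ± 0.039 (adjusted p = 0.00203) in PCM, and with SCM by 0.27 ± 0.039 (adjusted p = 1.52e-04), a response lower than that of shControl by 0.21 ± 0.055 (adjusted p = 0.00571). With shNdufa5_1 it did not pass in SCM, at -0.024 ± 0.039 (adjusted p = 0.616), or in PCM, at -0.025 ± 0.039 (adjusted p = 0.613). In SCM, Pmpcb was at 19.6, 19.3 and 20.9 FPKM with shNdufa5_1, 24.2, 22.001 and 24.1 FPKM in the libraries labelled shNdufa5_2, and 26.7, 25.6 and 29.8 FPKM with shControl. In PCM, Pmpcb was at 16.8, 15.9 and 17.7 FPKM with shNdufa5_1, 23.8, 22.5 and 22.4 FPKM in the libraries labelled shNdufa5_2, and 21.5, 21.4 and 20.8 FPKM with shControl. Pmpcb was below shControl in every shNdufa5_1 library in each medium, by 0.44 ± 0.056 (adjusted p = 6.38e-06) in SCM and 0.32 ± 0.056 (adjusted p = 1.81e-04) in PCM. It was lower by 0.21 ± 0.056 (adjusted p = 0.00858) in SCM in the libraries labelled shNdufa5_2. With SCM it rose in shControl by 0.35 ± 0.056 (adjusted p = 6.42e-05) and with shNdufa5_1 by 0.23 ± 0.056 (adjusted p = 0.00358), and the response with the label shNdufa5_2 was lower by 0.32 ± 0.079 (adjusted p = 0.00457). Calls of Pmpca were lost with quantile normalization in the shNdufa5_2 response (0.015, the opposite sign), and with FPKM totals relative to the median gene between media under shNdufa5_2 (-0.26), for shNdufa5_2 in PCM (-0.23) and in the shNdufa5_2 response (-0.094). Calls of Pmpcb were lost with quantile normalization for shNdufa5_2 in SCM (-0.13) and in the shNdufa5_2 response (-0.19), and with FPKM totals relative to the median gene between media under shNdufa5_1 (0.21), for shNdufa5_2 in SCM (-0.16) and in the shNdufa5_2 response (-0.21).

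The members were set beside 40 other genes of import and mitochondrial protein quality control, all of which passed the filter on low values. With SCM in shControl, 18 of the 40 rose, 9 fell and 13 did not pass, so that 67.5% were called, against 61.9% of all tested genes. By FPKM totals 4 rose and 26 fell, by recovered fragments 10 and 19, and by quantile normalization 11 and 15. Those that rose included the cytosolic chaperones Hspa8 (1.15) and Hsp90ab1 (0.82) and the outer membrane protein Mtch1 (1.02), and the proteases Yme1l1 (-0.41) and Oma1 (-0.32), the extractor Atad1 (-0.41) and the metaxin Mtx3 (-0.41) fell most. Under shNdufa5_1, 8 rose and 10 fell with SCM, against 42.3% of all genes called, and in the libraries labelled shNdufa5_2, 5 rose and 3 fell, against 22.8%. Recovered fragments gave 5 higher and 10 lower for the last. Against shControl in SCM, 18 fell and 10 rose with shNdufa5_1, against 59.8% of all genes called, and 19 fell and 1 rose in the libraries labelled shNdufa5_2, against 33.9%. By FPKM totals these were 4 lower and 23 higher and 1 lower and 13 higher, by recovered fragments 9 and 16 and 10 and 8, and by quantile normalization 12 and 15 and 8 and 7. With shNdufa5_1 the matrix proteases Clpp (-0.83) and Lonp1 (-0.60), the TIM23 subunit Romo1 (-0.72) and the inner membrane peptidase Immp2l (-0.68) fell most, while Oma1 (0.87), Mtx3 (0.72), Atad1 (0.52) and the chaperone Hsp90aa1 (0.37) rose most. In PCM, 7 fell and 14 rose with shNdufa5_1, against 52.7% of all genes called, and 6 fell and 12 rose in the libraries labelled shNdufa5_2, against 35.6%. By FPKM totals these were 11 lower and 6 higher and 22 lower and 0 higher, and for shNdufa5_2 by recovered fragments 11 and 7 and by quantile normalization 7 and 4. The signed response difference was called negative for 13 and positive for 1 with shNdufa5_1, against 26.2% of all genes called, and negative for 19 and positive for 6 in the libraries labelled shNdufa5_2, against 43.0%. By FPKM totals 0 were called negative and 25 and 22 positive, by recovered fragments 5 and 11 were negative and 9 and 8 positive, and by quantile normalization 5 and 9 were negative and 5 and 8 positive. Values in parentheses are log2 differences from limma.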

How the data were processed

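KPCA.B cells carrying 1 of 3 hairpins were grown in 2 conditioned media, and libraries of their polyadenylated RNA were prepared with a NEBNext Ultra kit, per the labels' protocols. The values deposited by the authors are FPKM for 54532 genes in 18 libraries, and groups came from the library titles. Per the submitters' processing notes STAR 2.6.1 was used, with GRCm38 or mm10 as the build. The counter, the gene lengths and the use of strand were not given in the sources used here. Low values came in steps of 1 fragment: among values of up to 20 fragments, 99.5 to 99.8% in genes with 1 transcript and 96.8 to 98.0% in the other genes were whole within 0.1 fragment, and from these steps each library's fragments were recovered.

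The test was limma 3.58.1 (R 4.3.3) on log2(FPKM + 1). On this scale the change of a low gene is understated. All 18 libraries entered a single model with 1 coefficient per group, 12 residual degrees of freedom and a variance trend on the mean, over the 11084 genes with a mean of at least 1 FPKM. P-values were two-sided and Benjamini-Hochberg adjusted over all tested genes, in each of 9 contrasts. The code was tested on simulated data. Members and gene lists were chosen with earlier results of these data known. Values of some listed genes are not reported here. Per contrast, the 5 largest rises and the 5 largest falls among called members without overlap of groups were named, together with the core subunits and paralogues. Gene lengths, GC content and overlaps came from GENCODE annotation of GRCm38, and promoters from RefSeq (GRCm38.p6), which listed 28 of the 32 members. Alternatives were another pseudocount, no filter, no trend, fits of the compared groups only, other scalings, removal of a length and GC trend, a replicate block and leaving out libraries. Scaling by recovered fragments or by totals without Gm23935, values relative to the median gene under other scalings and leaving out the 2 deepest libraries were chosen after seeing the data.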

Additional observations from a re-analysis of the deposited data

Results flagged for a closer look

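For 9 members with shNdufa5_1 and 15 members in the libraries labelled shNdufa5_2, the response to SCM differed from that of shControl by limma's test of the difference itself, at an adjusted p under 0.05. That is to be read against 26.2% and 43.0% of all tested genes called in these comparisons. All values below are signed differences of log2 responses, that under the hairpin minus that under shControl, and the 2 sets share the shControl libraries. The count of 9 was 5 without shControl PCM replicate 1, shNdufa5_1 SCM replicate 1 or shNdufa5_1 SCM replicate 2, and 4 with quantile normalization or without the 2 deepest libraries.

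With shNdufa5_1, 2 of the 9 differences kept their call under every alternative checked member by member. These were the TIM23 receptor Timm50 at -0.72 and the exchange factor Grpel2 at -0.43. FPKM totals were checked there only relative to the median gene. Without that reference they gave 15 members positive and 0 negative, so neither negative call was kept. The chaperone Timm13 (-0.50), the exchange factor Grpel1 (-0.27) and the receptor Tomm20 (-0.24) kept theirs when single libraries were left out and lost them with quantile normalization. The differences of Timm8a1 (-0.45), Timm10 (-0.32), Timm8b (-0.25) and Tomm22 (-0.26) were lost without single libraries.

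In the libraries labelled shNdufa5_2, 3 of the 15 kept their call under every alternative checked member by member. These were Timm50 at -0.89, Grpel2 at -0.56 and Grpel1 at -0.51. By FPKM totals not set against the median gene, 14 members had positive calls and 1 a negative call. Timm13 (-0.54), Timm17b (-0.48), Tomm22 (-0.46), Tomm20 (-0.44), Timm8b (-0.40), Pmpcb (-0.32), Tomm40 (-0.28) and Pmpca (-0.21) kept theirs when single libraries were left out and lost them under other settings. Tomm40l (-0.43), Tomm34 (-0.33) and Samm50 (-0.31) lost theirs without single libraries. The carrier receptor Tomm70a had the single positive call, 0.25, which was lost without single libraries and was -0.17 with the length and GC trend removed.

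In PCM, the medium the responses start from, the libraries labelled shNdufa5_2 held 93.4% of the Ndufa5 level of shControl. The part of that in the differences was not tested.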

How the results depend on the processing

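Of 114 called member differences, 46 kept their direction and their call under every alternative checked member by member. When single libraries were left out, 83 did so. That check used FPKM totals and recovered fragments only relative to the median gene. Scalings that move the median gene itself were left out of it, and there only counts of members are given. All 114 kept both with a pseudocount of 0.1, 63 with FPKM totals relative to the median gene, 75 with the length and GC trend removed, 78 with quantile normalization, 91 without a filter, 95 without the 2 deepest libraries, 105 in fits of the compared groups, 106 with recovered fragments relative to the median gene and 110 without the variance trend. The cause was not tested. The count of members called with SCM under shNdufa5_1, 6, was 11 with the trend removed, also with the replicate block, 10 with quantile normalization, 3 with FPKM totals, 14 with totals without Gm23935 and 12 with recovered fragments. Under shNdufa5_2 it was 8, against 2 with totals, 15 with totals without Gm23935 and 13 with fragments. For shNdufa5_2 against shControl in SCM it was 13, against 8 with quantile normalization, 3 with totals, 8 with totals without Gm23935 and 8 with fragments. The response count for shNdufa5_1, 9, was 5 without a filter, 4 with quantile normalization, 15 with totals and 4 without the 2 deepest libraries, and that for shNdufa5_2, 15, was 8 with quantile normalization. Leaving out single libraries gave 5 to 9 for the shNdufa5_1 response, the lowest without shControl PCM replicate 1 or shNdufa5_1 SCM replicate 1 or 2. With the trend removed, signs reversed for Timm8b with SCM in shControl (-0.099), in the shNdufa5_1 response (0.0081) and with shNdufa5_2 in PCM (-0.0156), and with SCM in shControl for Timm9 (0.0156) and Tomm34 (-0.082). They also reversed for Timm10 with shNdufa5_1 in SCM (0.027) and Tomm70a in the shNdufa5_2 response (-0.17), each also with the replicate block. Quantile normalization reversed Grpel1 and Timm8b with SCM in shControl (-0.0048 each) and Pmpca in the shNdufa5_2 response (0.015). Ndufa5 with shNdufa5_2 in SCM was no longer called with the trend removed, with or without the replicate block (-0.29). The same held with totals relative to the median gene (-0.38) and without the 2 deepest libraries (-0.34). Leaving out single libraries, this Ndufa5 difference ranged from -0.56 to -0.33. In PCM that range was -0.22 to 0.040, positive without shControl PCM replicate 3. Over all genes, the calls with SCM under shNdufa5_2 were 924 with totals and 2532 as reported, those of shNdufa5_2 in PCM 6473 and 3947, and those of the responses 7085 and 2900 for shNdufa5_1 and 7450 and 4768 for shNdufa5_2, the last 2905 with the trend removed and 2853 with the block as well.

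Deviations of same-numbered libraries from their group means correlated between -0.093 and 0.065 in 45 pairs, with 0 above 0.1. For libraries with different numbers the range was -0.097 to 0.096 in 90 pairs. No shared shift by replicate number was seen, but this does not show how the replicates were made, which the labels do not say. With the replicate block, 20, 8 and 8 members were called between media for shControl, shNdufa5_1 and shNdufa5_2, 14 and 9 for the hairpins in PCM, 21 and 12 in SCM, and 8 and 15 for the responses, in that order of hairpins. Timm10b, Tomm6, Tomm6os, Tomm20l and Timm8a2, below the 1 FPKM filter, rested on 1 to 1129 fragments over 18 libraries.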
